A study of Homo sapiens with 21 samples.

Results

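Chromatin accessibility was examined at the genes of WNT signalling in neuroblastoma cells in which the BAF subunits ARID1A and ARID1B had been silenced. The members were 52 genes for WNT ligands, their receptors and co-receptors, secreted inhibitors, R-spondins with their receptors, and the transcription factors and feedback target of the pathway. A site belonged to a member when the gene name given to it by the deposited annotation, which is the gene with the nearest transcription start site, was that member. The rule found 1031 of the 367900 sites, which lay at 51 genes, and WNT1 had none. Of these, 1001 sites passed the filter on low counts and were tested beside 357029 sites in all. The nearest gene need not be the gene that a site regulates.

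The cells were SK-N-BE(2), an established human neuroblastoma line, and all groups came from this 1 line. ATAC-seq reads out open DNA through the insertion of adapters by a transposase, so more reads over a site mean a more accessible site. Cells received lentivirus with short hairpin RNAs (shRNAs) and were taken 72 h later, with 3 libraries in each of 7 groups, described as biological triplicates. The groups were Control, shARID1A.2 and shARID1A.4 against ARID1A, shARID1B.2 and shARID1B.3 against ARID1B, and shARID1A/B.2.3 and shARID1A/B.4.2 against both genes. Read from their numbers, shARID1A/B.2.3 joins shARID1A.2 with shARID1B.3, and shARID1A/B.4.2 joins shARID1A.4 with shARID1B.2. The Control libraries carry the label NSC in the deposited tables, taken here as the non-silencing shRNA control of the study. Every silenced group was compared with the same 3 Control libraries. ATAC-seq does not measure the RNA or protein of ARID1A and ARID1B, so the silencing itself is not checked in these data.

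Total reads over sites ranged from 16140029 to 44472230 per library. The share of reads at promoter sites was 20.0 to 20.6% in the Control libraries, 20.9 to 24.1% in the single-shRNA libraries and 23.4 to 25.1% in the combination libraries. Of 8 sympathoadrenal marker genes, 6 had an accessible start site, with PHOX2A at 20.9 to 37.5 and HAND2 at 40.5 to 59.8 CPM (counts scaled to the library total). Among markers of other cell types, EPCAM, CDH1 and MYOD1 had one, the last at 10.8 to 17.3 CPM, while PTPRC and CD3E (blood), ALB (liver) and PECAM1 (endothelium) had none.

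WNT proteins are secreted, lipid-modified ligands that bind Frizzled receptors. In the canonical branch a Frizzled receptor acts with LRP5 or LRP6 to stabilise β-catenin, which then works with TCF and LEF factors at target genes such as AXIN2, while ROR1, ROR2 and RYK serve as receptors or co-receptors of other branches. Dickkopf (DKK) and secreted Frizzled-related (SFRP) proteins restrain the pathway outside the cell, and R-spondins acting through LGR4, LGR5 and LGR6 strengthen it. WNT signalling takes part in the induction of the neural crest, the tissue from which the sympathoadrenal lineage and neuroblastoma arise.

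The sequences below are windows of 300 bases at the centre of sites, from GRCh38, plus strand, written 5′ to 3′. They show 4 of the 5 largest falls and the 2 largest rises after silencing of both genes, and the start site of ROR2, which was added after its values had been seen. The RSPO2 site, next in size of fall after those of WNT11 and WNT10A, is not printed. Capitals mark matches, on either strand, to the AP-1 motif TGANTCA, the TCF/LEF motif CTTTGAT, the motif AGATAA of GATA factors, the homeodomain motif TAATTA, the TEAD motif GGAATG, and the E-box motifs CAGCTG and also CATCTG of basic helix-loop-helix factors. No matches overlap in these windows.
WNT11 site that fell, chr11:76108460-76108759: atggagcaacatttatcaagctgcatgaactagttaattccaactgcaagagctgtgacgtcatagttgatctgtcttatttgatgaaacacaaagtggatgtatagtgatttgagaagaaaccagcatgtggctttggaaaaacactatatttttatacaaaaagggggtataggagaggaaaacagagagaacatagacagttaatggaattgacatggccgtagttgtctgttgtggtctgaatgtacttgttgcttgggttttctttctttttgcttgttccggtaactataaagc
WNT10A site that fell, chr2:218886498-218886797: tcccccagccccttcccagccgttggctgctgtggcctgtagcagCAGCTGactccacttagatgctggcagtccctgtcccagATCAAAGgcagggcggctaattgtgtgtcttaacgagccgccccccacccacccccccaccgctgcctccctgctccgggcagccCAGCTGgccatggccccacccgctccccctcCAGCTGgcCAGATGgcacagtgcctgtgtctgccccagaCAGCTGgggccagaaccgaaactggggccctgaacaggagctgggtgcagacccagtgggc
TCF7L2 site that fell, chr10:113329254-113329553: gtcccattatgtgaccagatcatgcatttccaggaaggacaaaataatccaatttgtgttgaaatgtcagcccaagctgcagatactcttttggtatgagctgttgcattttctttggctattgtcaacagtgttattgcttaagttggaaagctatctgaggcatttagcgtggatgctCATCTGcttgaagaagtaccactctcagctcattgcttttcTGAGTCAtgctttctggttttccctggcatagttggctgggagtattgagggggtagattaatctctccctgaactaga
WNT9B site that fell, chr17:46869220-46869519: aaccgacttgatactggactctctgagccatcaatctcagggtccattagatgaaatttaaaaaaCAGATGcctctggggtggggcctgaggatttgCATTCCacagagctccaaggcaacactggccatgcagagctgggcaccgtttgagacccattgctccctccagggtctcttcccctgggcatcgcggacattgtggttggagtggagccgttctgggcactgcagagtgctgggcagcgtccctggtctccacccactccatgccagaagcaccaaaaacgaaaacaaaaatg
ROR1 site that rose, chr1:63691984-63692283: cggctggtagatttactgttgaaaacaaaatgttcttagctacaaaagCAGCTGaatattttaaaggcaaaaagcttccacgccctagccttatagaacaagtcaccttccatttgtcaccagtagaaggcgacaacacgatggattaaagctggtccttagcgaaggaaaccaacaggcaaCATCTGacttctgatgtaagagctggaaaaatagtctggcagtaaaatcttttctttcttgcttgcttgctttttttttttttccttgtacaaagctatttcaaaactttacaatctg
FZD9 site that rose, chr7:73451813-73452112: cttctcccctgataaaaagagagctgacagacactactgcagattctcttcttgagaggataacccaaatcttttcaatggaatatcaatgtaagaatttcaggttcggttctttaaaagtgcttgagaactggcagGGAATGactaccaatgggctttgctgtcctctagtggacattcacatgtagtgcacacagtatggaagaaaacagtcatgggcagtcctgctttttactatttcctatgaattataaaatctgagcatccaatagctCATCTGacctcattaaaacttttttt
ROR2 start site, chr9:91818047-91818346: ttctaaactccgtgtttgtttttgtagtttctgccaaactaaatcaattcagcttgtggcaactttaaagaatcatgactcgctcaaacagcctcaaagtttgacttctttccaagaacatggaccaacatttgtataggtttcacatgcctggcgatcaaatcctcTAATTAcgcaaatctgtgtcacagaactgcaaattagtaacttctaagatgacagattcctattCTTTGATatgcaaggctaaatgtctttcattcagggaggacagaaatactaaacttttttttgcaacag

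The WNT10A window held 6 matches, of which 4 were the E-box CAGCTG, 1 was CATCTG and 1 was TCF/LEF at bases 85 to 91, and its GC content was 67.3%. The TCF7L2 window held AP-1 at bases 222 to 228 and CATCTG at bases 181 to 186. In the WNT9B window the matches were CATCTG and TEAD, and the WNT11 window matched none of the motifs. The start site of ROR2 held TCF/LEF at bases 232 to 238 and TAATTA at bases 168 to 173. Over the central 300 bases of the 126 member sites that fell, the TCF/LEF letters occurred in 5.56%, against 4.2% of all tested member sites and 4.02% of all tested sites. For TAATTA the shares were 16.67%, 8.09% and 7.87%, for AGATAA 23.02%, 17.88% and 17.03%, and for TGANTCA 11.11%, 9.69% and 10.91%. CATCTG occurred in 27.78%, 23.38% and 23.03%, CAGCTG in 20.63%, 17.08% and 17.63%, and GGAATG in 12.7%, 15.28% and 16.84% of the same sets. Among all 36610 tested sites that fell, the shares were 14.12% for TAATTA, 24.68% for AGATAA and 4.98% for CTTTGAT. In those sites TGANTCA occurred in 14.33%, CATCTG in 32.99%, CAGCTG in 20.23% and GGAATG in 17.87%. These matches are counts of letters and were not tested.

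To see what BAF disruption did at the WNT genes, both combinations were first averaged and compared with Control. Accessibility fell at 126 member sites and rose at 23 (edgeR quasi-likelihood test, false discovery rate (FDR) under 0.01 with Benjamini-Hochberg adjustment over all tested sites). This was 14.9% of the member sites, close to the 13.7% called among all tested sites. Falls made up 12.6% of the member sites against 10.3% of all sites, and rises 2.3% against 3.43%. The median log2 change was -0.005 at member sites and 0.032 over all sites. The falls were the larger changes, with a median log2 change of -0.87 against 0.48 for the rises, and 48 sites fell by at least 1 on the log2 scale while 2 rose by as much. When libraries were scaled on promoter sites alone, which moves the median of all sites by -0.23, the members split into 192 lower and 5 higher. Among all 357029 tested sites the same scaling gave 56825 lower and 2601 higher. Falls thus made up 95.6% of all calls under that scaling and 97.5% of those of the members.

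The changed sites lay at many of the members. The share of all genes with a called site is not given here, so the gene counts that follow have no background. A member had a median of 11 tested sites and at most 96, and more sites give more room for a call. At least 1 site fell at 37 genes, at least 1 rose at 18, and 13 genes had both, whereas 9 genes had no called site (WNT2B, WNT5A, WNT9A, WNT10B, FZD10, SFRP4, LEF1, RSPO1 and RSPO4). Among these 9, the sites at an unadjusted p under 0.05 in edgeR were 4 of 19 at FZD10, 3 of 21 at LEF1, 3 of 6 at RSPO4 and 1 of 2 at WNT5A, with a smallest FDR of 0.0181 at RSPO4 and 0.0148 at WNT5A, and DESeq2 called 0 sites at any of them. TCF7L2, which encodes a nuclear partner of β-catenin, had the most falls with 16 of 44 tested sites. ROR1, which encodes a receptor of the ROR kinase family, followed with 11 of 24, then FZD7 with 9 of 24 and WNT11 with 7 of 41. RSPO3 had the most tested sites, 96, of which 2 fell and 1 rose.

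**Figure D1:**
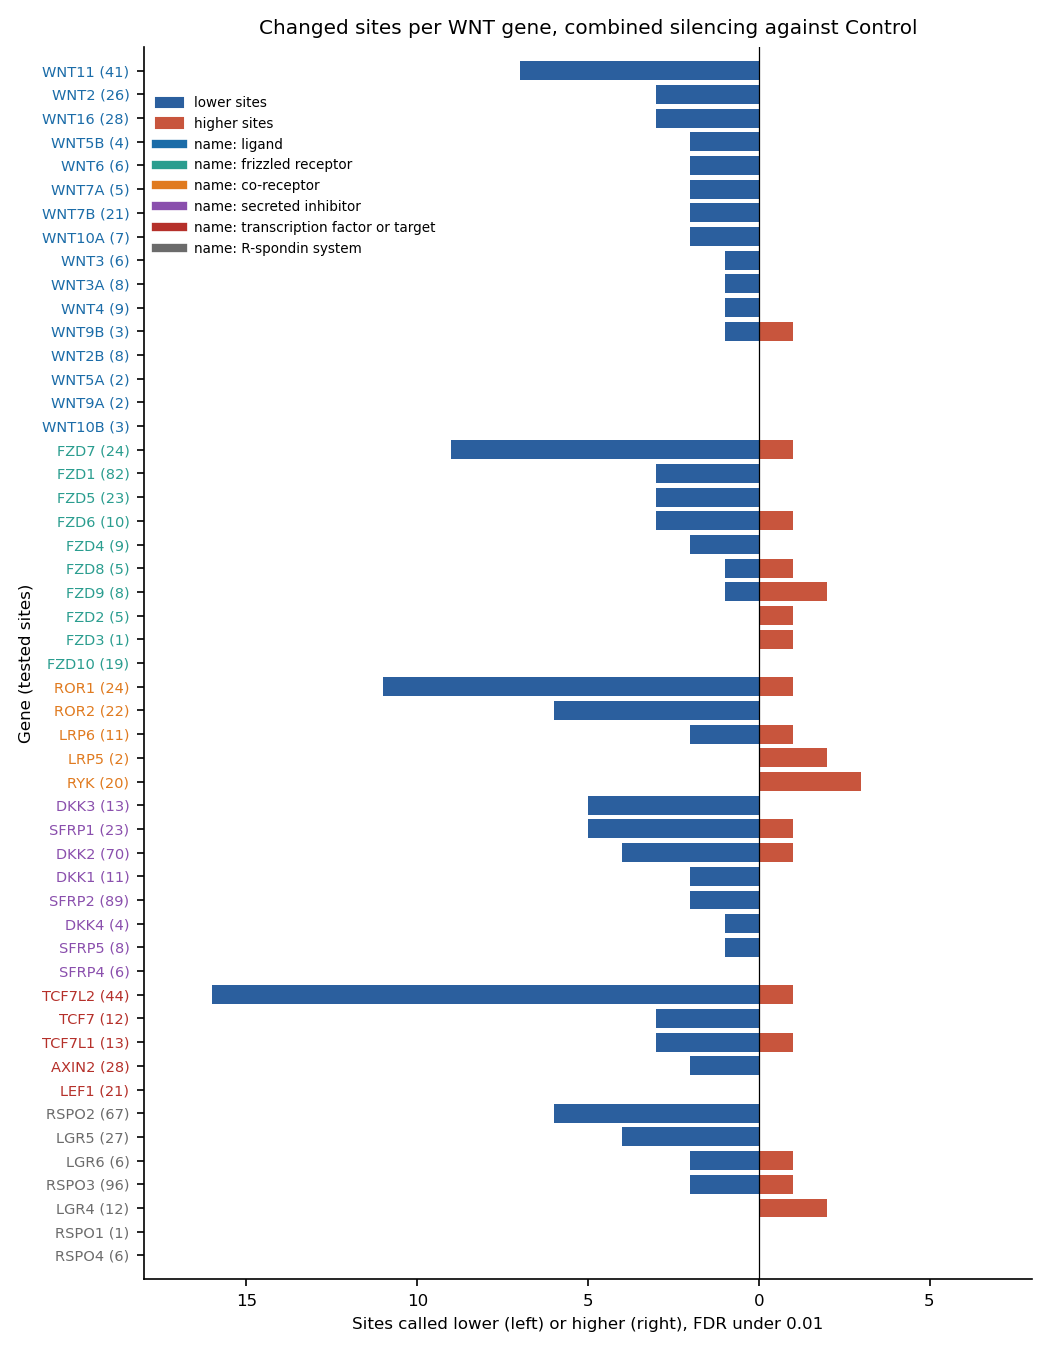
Number of sites called lower (left) or higher (right) after combined silencing, for each WNT gene with its number of tested sites. Falls gathered at TCF7L2 (16), ROR1 (11), FZD7 (9) and WNT11 (7), while LRP5, RYK, LGR4, FZD2 and FZD3 had rises without a fall. With scaling on promoter sites the members as a whole had 192 falls and 5 rises in place of 126 and 23. All tested sites then had 56825 falls and 2601 rises.

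Falls lay mostly away from start sites, and rises often at them. Of the 126 falls, 63 were intergenic and 55 intronic, while 8 of the 23 rises lay in sites annotated as promoters. Beyond 1000 bases from a start site, 122 of 961 member sites fell and 11 rose, which is 12.7% and 1.14%, against 10.6% and 2.0% of all such sites. Within 1000 bases, 4 of 40 fell and 12 rose, so that 30.0% rose, while 3.72% fell and 31.8% rose among all sites in that range. The share of rises at member start sites was therefore near that of start sites in general. Sites that fell had a median level of 2.88 CPM and sites that rose 8.67 CPM, where the median member site had 1.06 CPM. The median GC content of their central windows was 46.5% for falls and 72.0% for rises.

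**Figure D2:**
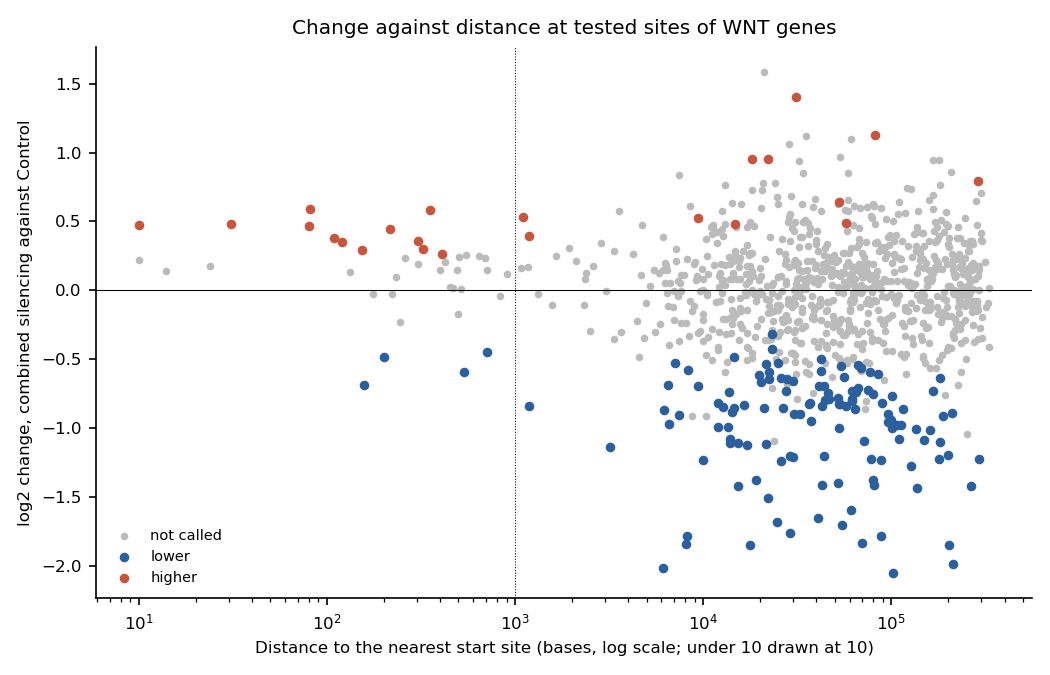
Log2 change after combined silencing (vertical axis) against the distance to the nearest start site in bases (log scale) for the tested WNT sites, with the 1000-base limit as a dotted line. Of the sites beyond the line 122 fell and 11 rose, and of those within it 4 fell and 12 rose. With scaling on promoter sites the start sites were more often lower than higher.

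Ligand genes had 27 falls and 1 rise among 179 tested sites of 16 genes, 15.6% called against 13.7% of all sites. The largest fall of any member site at a mean of 1 CPM or more lay 102149 bases from the start of WNT11, a ligand mainly of the non-canonical branch, within an intron of UVRAG (chr11:76107870-76109351). There the Control libraries had 8.04, 6.62 and 7.54 CPM, shARID1A/B.2.3 had 1.35, 1.39 and 1.8 CPM, and shARID1A/B.4.2 had 1.84, 2.53 and 1.99 CPM. The combination libraries all lay below the Control libraries, and the mean fell 4.15-fold (log2 change -2.05, SE 0.12, FDR 5.88e-26). The single silencings lay in between or as low, with 4.12, 4.35 and 4.0 CPM for shARID1A.2, 4.03, 3.24 and 3.88 CPM for shARID1A.4, 3.6, 3.67 and 3.13 CPM for shARID1B.2, and 1.73, 1.51 and 1.68 CPM for shARID1B.3. ShARID1B.3 alone thus reached the range of the combinations.

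The intronic site of WNT10A, a ligand of the canonical branch (chr2:218886157-218887140, 6115 bases from the start), had 10.2, 8.71 and 8.7 CPM in Control. With shARID1A/B.2.3 it had 1.97, 1.72 and 2.55 CPM, and with shARID1A/B.4.2 3.32, 2.21 and 2.13 CPM (log2 change -2.01, SE 0.12, FDR 2.74e-26). Here ARID1A silencing came nearer to the combinations, with 2.5 to 3.53 CPM over the libraries of both ARID1A shRNAs, than ARID1B silencing, with 4.24 to 6.02 CPM. The neighbouring gene WNT6 lies on the same stretch of chromosome 2 and had a like pattern at an intronic site (chr2:218867349-218868593). That site had 9.29, 8.14 and 7.94 CPM in Control, 2.4, 1.93 and 2.29 CPM in shARID1A/B.2.3 and 2.29, 2.48 and 2.88 CPM in shARID1A/B.4.2 (log2 change -1.84, SE 0.11, FDR 2.93e-25). The groups did not overlap at either site. Intron 1 of WNT9B and the intergenic DNA upstream of WNT16 held the other ligand sites among the 12 largest falls, with log2 changes of -1.85 (SE 0.17) and -1.68 (SE 0.16). At WNT16 the 3 called sites all fell, by 1.11 to 1.68 on the log2 scale, and all lay 15282 to 24798 bases from the start.

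Frizzled receptor genes had 22 falls and 7 rises among 186 tested sites of 10 genes, 11.8% and 3.76% against 10.3% and 3.43% of all sites. FZD7 combined both directions. Its 9 falls were all intergenic and upstream, 14224 to 101198 bases from the start, with log2 changes from -1.09 to -0.61. Its start site rose from 42.6, 32.6 and 42.5 CPM in Control to 47.8, 41.8 and 47.1 CPM in shARID1A/B.2.3 and 52.4, 50.7 and 51.0 CPM in shARID1A/B.4.2 (log2 change 0.30, SE 0.08, FDR 0.00169). Control and combination libraries overlapped there, and the call was lost without the second Control library and with scaling on promoter sites. FZD9 had a rise in an intron of BAZ1B 18184 bases away, at about 1 CPM (log2 change 0.95, SE 0.25, FDR 0.00239), where Control and combinations also overlapped. This call too was lost in both of those alternatives, at log2 changes of 0.69 and 0.73.

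Among the co-receptor genes LRP5, LRP6, ROR1, ROR2 and RYK, 19 of 79 tested sites fell and 7 rose, 24.1% and 8.86% against 10.3% and 3.43% of all sites, with a median log2 change of -0.295. The falls came from ROR1 with 11, ROR2 with 6 and LRP6 with 2, and the rises from RYK with 3, LRP5 with 2, and LRP6 and ROR1 with 1 each. ROR1, a receptor for WNT5A, had falls from 15222 to 161599 bases from its start, 7 of them in its own introns and 4 intergenic, and 8 fell by at least 1 on the log2 scale. At its intronic site chr1:63834928-63835673 the Control libraries had 2.79, 1.93 and 2.37 CPM. The combinations had 0.624, 0.465 and 1.1 CPM in shARID1A/B.2.3 and 1.12, 0.69 and 0.835 CPM in shARID1A/B.4.2, below every Control library (log2 change -1.60, SE 0.20, FDR 4.47e-10). ROR1 also had the largest rise at 1 CPM or more, an intergenic site 81885 bases upstream, with 0.77, 0.411 and 0.561 CPM in Control. There the combinations had 0.919, 0.674 and 1.49 CPM and 1.7, 1.75 and 1.44 CPM, so that 1 shARID1A/B.2.3 library lay within the Control range (log2 change 1.13, SE 0.25, FDR 0.000319).

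RYK, a receptor with an inactive kinase domain, rose at an intronic site (chr3:134197595-134198466) from 1.92, 1.15 and 2.16 CPM to 3.22, 2.37 and 3.38 CPM in shARID1A/B.2.3 and 2.55, 2.85 and 2.18 CPM in shARID1A/B.4.2. The groups did not overlap, though the lowest combination library lay just above the highest Control library (log2 change 0.64, SE 0.17, FDR 0.00205). The first intron of LRP5, a co-receptor of the canonical branch, rose by 0.53 on the log2 scale (SE 0.10, FDR 2.99e-05), with 14.8, 10.9 and 14.4 CPM in Control, 19.1, 13.8 and 19.0 CPM in shARID1A/B.2.3 and 20.3, 21.2 and 23.0 CPM in shARID1A/B.4.2. One library of shARID1A/B.2.3 overlapped Control there. The second Control library was the lowest of the 3 at both sites, and without it the call at the RYK site was lost.

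The secreted inhibitor genes had 20 falls and 2 rises among 224 tested sites of 8 genes, and their 9.82% called was below the 13.7% of all sites. DKK3, a divergent member of the Dickkopf family, had 5 falls among 13 sites, which lay 12759 to 40938 bases from its start with log2 changes from -1.65 to -0.85. Its strongest site (chr11:11968179-11969597, intronic) was also one of the more accessible member sites, with 23.7, 22.9 and 23.0 CPM in Control. It had 6.34, 4.34 and 5.58 CPM in shARID1A/B.2.3 and 9.99, 9.53 and 11.0 CPM in shARID1A/B.4.2 (log2 change -1.65, SE 0.09, FDR 9.99e-28). No single silencing brought it as low, since the lowest single-shRNA library had 11.8 CPM. SFRP1, an extracellular WNT antagonist, moved both ways: 5 intergenic sites fell, the strongest by 1.70 on the log2 scale (SE 0.17, FDR 4.02e-14), and the first exon rose by 0.58 (SE 0.08, FDR 4.02e-09). In that exon the Control libraries had 24.8, 25.2 and 25.1 CPM, shARID1A/B.2.3 had 32.7, 31.5 and 30.2 CPM, and shARID1A/B.4.2 had 45.9, 42.5 and 45.8 CPM. The groups did not overlap, and the rise kept its call under scaling on promoter sites.

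At the genes for nuclear factors and the target AXIN2, 24 of 118 tested sites fell and 2 rose, 20.3% and 1.69% against 10.3% and 3.43% of all sites. TCF7L2 supplied 16 of the falls. They ran from 13801 to 211599 bases from its start, 7 within its own gene body and 8 intergenic, and 6 fell by at least 1 on the log2 scale. At the strongest, 203710 bases from the start (chr10:113328837-113329971), Control had 13, 10.1 and 11.8 CPM. The combinations differed from each other, with 2.17, 2.14 and 2.15 CPM for shARID1A/B.2.3 and 4.93, 4.33 and 5.15 CPM for shARID1A/B.4.2, all below Control (log2 change -1.85, SE 0.11, FDR 2.64e-27). The site taken as the start site of TCF7L2 was annotated as a promoter but lay 3340 bases from the start. It was weak, with means of 1.0 CPM in Control, 1.06 CPM in shARID1A/B.2.3 and 1.4 CPM in shARID1A/B.4.2. Its log2 change was 0.29 (SE 0.21, FDR 0.38), which says little about the start of the gene itself. TCF7, which encodes TCF-1, fell at a site 8202 bases upstream (chr5:134106948-134107967) from 9.38, 7.4 and 8.98 CPM to 2.36, 1.51 and 2.2 CPM and to 2.91, 3.45 and 3.11 CPM with the combinations. These groups were separate as well (log2 change -1.78, SE 0.12, FDR 1.71e-22). AXIN2, the feedback inhibitor used as a readout of canonical signalling, had 2 falls among 28 sites, and both lay 189441 to 293762 bases away in introns of CEP112.

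The R-spondin system had 14 falls and 4 rises among 215 tested sites of 7 genes, and their 8.37% called was below the 13.7% of all sites. RSPO2, which encodes an R-spondin, had 6 falls, the largest of -1.99 (SE 0.18, FDR 2.12e-16) at an intergenic site that had 3.03, 2.63 and 3.17 CPM in Control and 0.488 to 1.11 CPM over the combination libraries. LGR5, which encodes an R-spondin receptor known as a stem cell marker, had 4 falls. Its intronic site chr12:71481459-71482439 went from 3.18, 3.99 and 3.85 CPM to 1.05, 1.09 and 1.06 CPM in shARID1A/B.2.3 and 1.39, 1.98 and 1.99 CPM in shARID1A/B.4.2, without overlap (log2 change -1.41, SE 0.15, FDR 4.28e-13). An intergenic site of RSPO3 rose by 0.80 (SE 0.21, FDR 0.00192), but the combinations overlapped Control, with 1.03, 2.25 and 1.25 CPM in shARID1A/B.4.2 against 1.01, 0.945 and 1.2 CPM. Its call was lost with scaling on promoter sites and without Control replicate 1, Control replicate 2 or shARID1A/B.4.2 replicate 2, with log2 changes of 0.57, 0.77, 0.75 and 0.62.

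**Figure D3:**
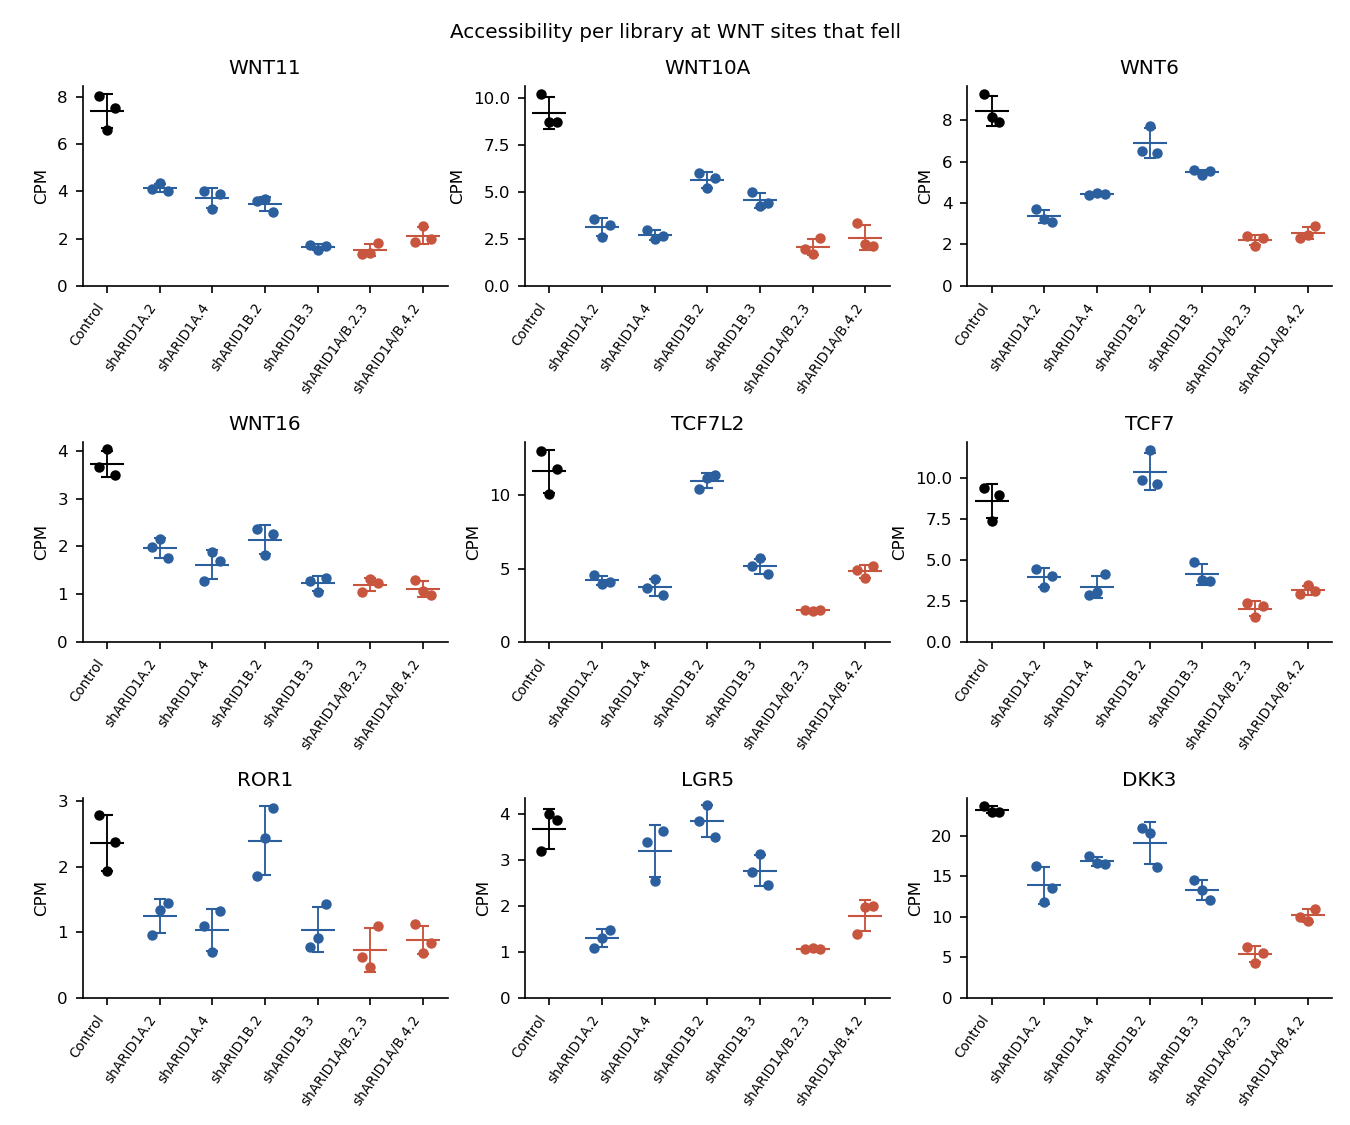
CPM in each library (points) of the 7 groups at 9 WNT sites that fell, each panel from 0. The sites are from the named falls, which were chosen on these same libraries. At all 9 sites the combination libraries lie below the Control libraries, shARID1B.2 does not lie below Control at the TCF7L2, TCF7, ROR1 and LGR5 sites, and shARID1A.2 lies below shARID1A.4 at the LGR5 site.

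A start site, taken as the promoter-annotated site or else the nearest site within 1000 bases, was available for 42 members. The promoter-annotated sites of TCF7L2 and WNT5A lay 3340 and 3640 bases from the start. Of these 12 rose and 4 fell, with a median log2 change of 0.19, whereas scaling on promoter sites gave 3 higher and 7 lower with a median of -0.05. The direction at start sites as a group therefore depended on the scaling. The rises were FZD9, SFRP1, FZD2, TCF7L1, WNT9B, RYK, LRP6, FZD3, FZD6, FZD7, FZD8 and LGR4, and those of FZD9, SFRP1 and TCF7L1 kept their calls under that scaling. Without the second Control library 8 of the 12 kept their calls, and without Control replicate 3 it was 9. The promoter share of reads was higher in the combination libraries than in Control, as given above, and its part in these rises was not tested.

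TCF7L1 encodes a TCF factor that acts mostly as a repressor. Its start site had 25.4, 25.5 and 26.7 CPM in Control, 35.6, 35.1 and 33.8 CPM in shARID1A/B.2.3 and 36.4, 36.7 and 38.0 CPM in shARID1A/B.4.2 (log2 change 0.47, SE 0.07, FDR 1.71e-07). Every combination library exceeded every Control library. LRP6, the partner of LRP5, rose from 33.2, 31.9 and 32.3 CPM to 42.1, 38.7 and 38.2 CPM and to 46.1, 43.4 and 45.3 CPM (log2 change 0.38, SE 0.08, FDR 3.67e-05), again without overlap but not under promoter scaling. At FZD2, a Frizzled receptor gene, the second Control library had 9.53 CPM beside 14.3 and 15.6 CPM in the others, against 16.6 to 21.7 CPM over the combinations (log2 change 0.48, SE 0.10, FDR 6.28e-05). The FZD2 call was lost without Control replicate 2 and with scaling on promoter sites.

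The start sites that fell were those of DKK4, ROR2, WNT5B and WNT10A, with log2 changes of -0.68, -0.60, -0.48 and -0.45. ROR2, a WNT5A receptor, had 5.2, 3.99 and 5.89 CPM in Control, 3.18, 2.23 and 3.47 CPM in shARID1A/B.2.3 and 4.03, 3.64 and 3.85 CPM in shARID1A/B.4.2. The lowest Control library overlapped the second combination (SE 0.13, FDR 0.000203), and the call was lost without Control replicate 3, at a log2 change of -0.46 and an FDR of 0.0255. At WNT10A the Control libraries had 12.2, 10.6 and 13 CPM and the combinations 7.91, 6.92 and 7.83 CPM and 9.95, 9.99 and 10.7 CPM, so that 1 library overlapped. Without the first Control library 2 of the 4 falls kept their calls, and 2 without Control replicate 3.

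**Figure D4:**
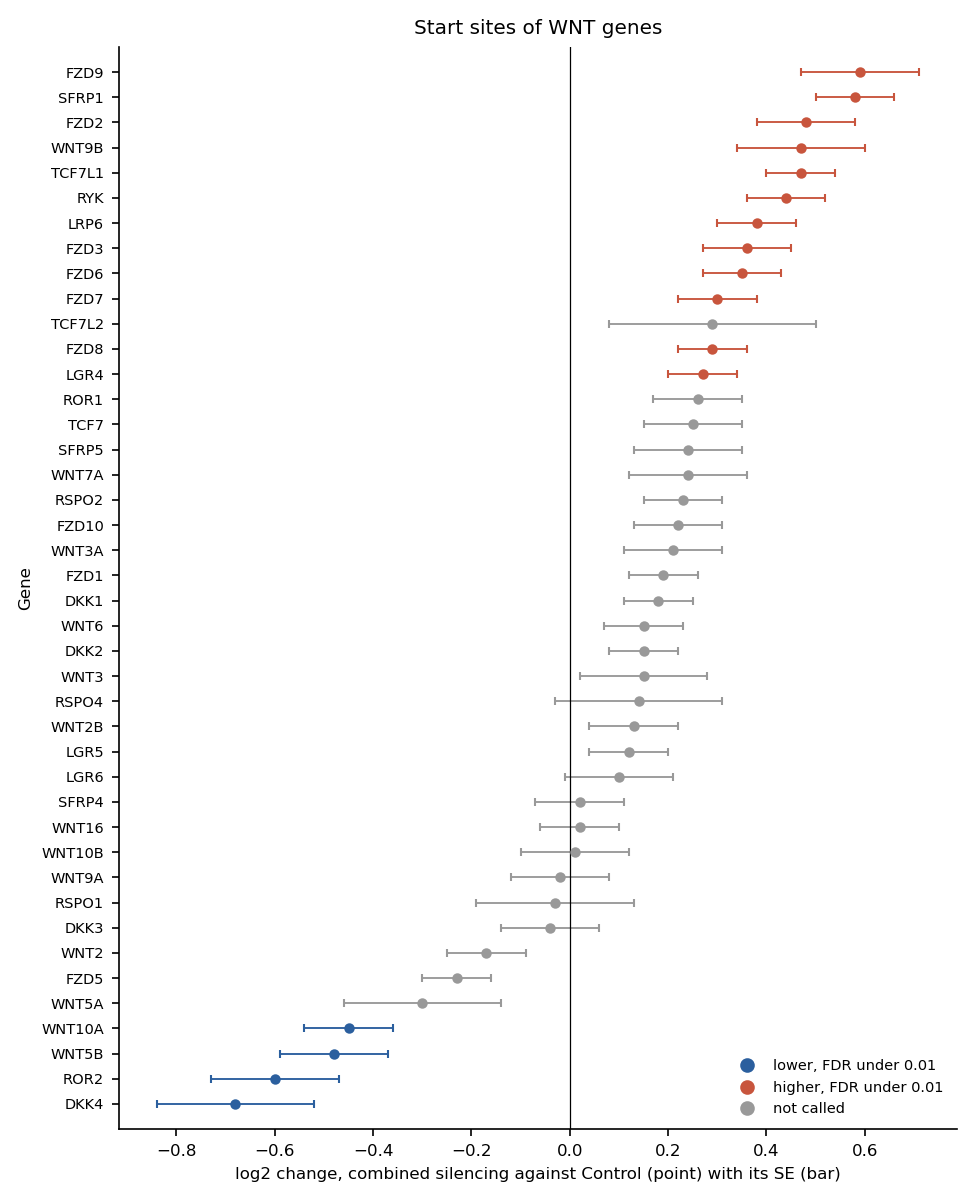
Log2 change after combined silencing at the start sites of 42 WNT genes (points) with their SE (bars), coloured by call. FZD9 and SFRP1 are highest and DKK4 and ROR2 lowest. Under scaling on promoter sites 3 were higher and 7 lower in place of the 12 and 4 drawn here.

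To obtain 1 value per gene, the counts of all sites of a gene were summed and the test repeated over 26743 genes. After combined silencing 14 of the 51 members were lower and 4 higher, that is 35.3% against 36.9% of all genes. The lower share was 27.5% against 20.9%, and the higher share 7.84% against 15.9%. Scaling on promoter sites gave 26 lower members, and none of the 4 higher ones kept its call. The number of all genes called under that scaling is not given here, so the 26 cannot be set against a background. The lower genes included 5 ligand genes, namely WNT5B (-0.51), WNT6 (-0.41), WNT10A (-0.32), WNT11 (-0.24) and WNT2 (-0.22 on the log2 scale). The call of WNT11 was lost with total counts as scaling and without Control replicate 1 or 3, at -0.17 to -0.18, and that of WNT2 without Control replicate 2, at -0.16.

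DKK3 fell most, with summed values of 97.0, 88.6 and 92.1 CPM in Control, of 51.0, 41.4 and 52.2 CPM in shARID1A/B.2.3 and of 63.1, 59.1 and 62.8 CPM in shARID1A/B.4.2 (log2 change -0.77, SE 0.05, FDR 1.4e-10). TCF7L2 followed with 165, 146 and 164 CPM in Control, 103, 93.9 and 105 CPM in shARID1A/B.2.3 and 103, 102 and 103 CPM in shARID1A/B.4.2 (log2 change -0.64, SE 0.05, FDR 1.87e-10). At both genes the groups were far apart. The receptor genes ROR1 (-0.46) and ROR2 (-0.44) were lower together with FZD5 (-0.33) and FZD7 (-0.28), and TCF7 (-0.27), LGR5 (-0.18) and SFRP1 (-0.15) completed the list. These last 3 lost their calls with total counts as scaling, at -0.20, -0.11 and -0.09, and TCF7 without Control replicate 3 and SFRP1 without Control replicate 1 or 3. The 4 higher genes were LRP5 (0.46, SE 0.11, FDR 0.00138), FZD2 (0.34), FZD3 (0.30) and RYK (0.22). LRP5 had 20.6, 15.6 and 20.7 CPM in Control and 21.2 to 28.2 CPM over the combinations, above every Control library, and its call was lost without the second Control library, as were those of FZD2 and FZD3. LEF1, the other lymphoid TCF factor, had a log2 change of 0.05 (FDR 0.605).

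**Figure D5:**
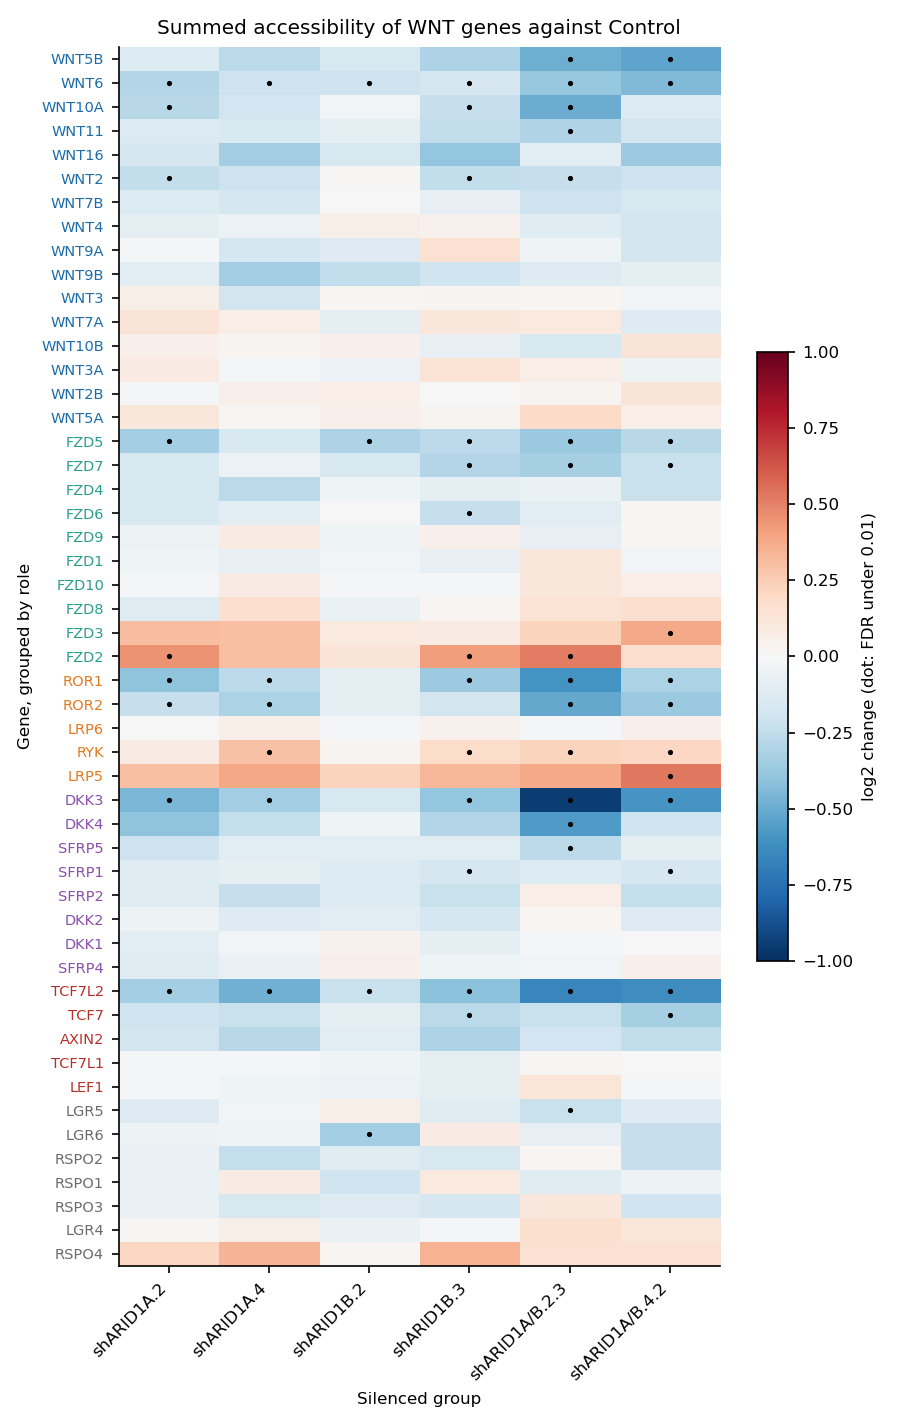
Log2 change of summed accessibility against Control for each WNT gene (rows, by role) in the 6 silenced groups (columns), with a dot at an FDR under 0.01. TCF7L2 and WNT6 carry a dot in all 6 groups, and DKK3 and ROR1 in all but shARID1B.2. With scaling on promoter sites 26 genes were lower in the averaged combinations in place of 14. The number over all genes under that scaling is not given.

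The combinations were then taken apart. ShARID1A/B.2.3 had 137 falls and 18 rises at member sites, 15.5% against 13.2% of all sites, where 10.4% of all sites fell and 2.85% rose. The number of rises was unsteady, with 40 under the replicate block of Control and shARID1A/B.2.3, 36 with total counts as scaling, 7 with scaling on promoter sites and 11 without Control replicate 1. ShARID1A/B.4.2 had 80 falls and 24 rises, 10.4% against 11.3%, where 7.37% of all sites fell and 3.97% rose. Among summed genes, 14 members were lower and 2 higher with shARID1A/B.2.3 (31.4% against 30.8% of all genes), and 10 were lower and 3 higher with shARID1A/B.4.2 (25.5% against 35.5%). Compared directly, shARID1A/B.2.3 was lower than shARID1A/B.4.2 at 37 member sites and higher at 14, which is 5.09% against 5.22% of all sites (3.79% lower and 1.43% higher). At the TCF7L2 site described above the difference was -1.16 (SE 0.15, FDR 2.98e-09) and at the DKK3 site -0.93 (SE 0.12, FDR 7.64e-09). The SFRP1 site went the other way, being higher by 1.45 with shARID1A/B.2.3 (SE 0.25, FDR 8.62e-06).

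Each single silencing had fewer falls than the combinations, but depth differed between groups. Reads over sites numbered 36799314, 44472230 and 23104850 for shARID1B.3 and 29857760, 40953070 and 22030968 for shARID1A/B.2.3. Libraries of the other groups, shARID1A/B.4.2 and Control included, had 16140029 to 25188802. The part of depth in the counts of falls, those of the combinations included, was not tested. Against the same Control libraries shARID1A.2 had 57 falls and 6 rises, 6.29% against 5.38% of all sites (4.54% lower and 0.834% higher). ShARID1A.4 had 55 and 16, 7.09% against 6.45% (4.17% lower and 2.28% higher). For ARID1B, shARID1B.2 had 30 and 8, 3.8% against 3.18% (1.84% lower and 1.34% higher), and shARID1B.3 had 73 and 12, 8.49% against 8.0% (4.88% lower and 3.12% higher). With both directions added, the members' share was near that of all sites in each group. By direction, falls made up 3.0% of member sites for shARID1B.2 and 7.29% for shARID1B.3, above the shares of all sites, and rises made up 1.2% for shARID1B.3, below it. For shARID1A.2, 35 falls were called when its replicate 2 was left out and 37 when replicate 3 was. For shARID1B.3, 48 falls were called with replicate 2 left out. For shARID1B.2 the falls numbered 17 without Control replicate 1, 19 without Control replicate 3, 19 without its own replicate 1 and 18 without its own replicate 3. Among summed genes shARID1A.2 had 8 lower and 1 higher (17.6% against 16.3%), shARID1A.4 5 and 1 (11.8% against 19.7%), and shARID1B.3 11 and 2 (25.5% against 20.3%). With shARID1B.2 the lower genes were 4, that is 7.84% against 8.66% called in all. WNT6 and TCF7L2 were lower in each of the 4 single silencings, TCF7L2 with log2 changes of -0.34, -0.48, -0.22 and -0.41 in the order given.

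The shRNAs of 1 gene were not interchangeable at several of these sites. For ARID1B the direct comparison called 25 member sites lower and 47 higher with shARID1B.2 than with shARID1B.3, 7.19% against 7.21% of all sites (2.96% lower and 4.25% higher). At the TCF7L2 site shARID1B.2 had 10.4, 11.2 and 11.4 CPM, within the Control range (log2 change -0.08, FDR 0.796), and shARID1B.3 had 5.16, 5.69 and 4.66 CPM (difference 1.07, SE 0.12, FDR 7.81e-12). The TCF7 site had 9.9, 11.7 and 9.62 CPM with shARID1B.2 and 4.88, 3.75 and 3.74 CPM with shARID1B.3 (difference 1.32, SE 0.13, FDR 1.25e-13). The ROR1 site differed in the same direction by 1.26 (SE 0.23, FDR 1.22e-05), although its libraries of shARID1B.2 ran only from 1.85 to 2.9 CPM and those of shARID1B.3 from 0.781 to 1.43 CPM. For ARID1A 16 member sites were lower and 6 higher with shARID1A.2 than with shARID1A.4, 2.2% against 2.57% of all sites (1.84% lower and 0.737% higher). The LGR5 site was one of them, with 1.09, 1.3 and 1.48 CPM against 3.39, 2.54 and 3.63 CPM (difference -1.29, SE 0.20, FDR 8.12e-07). RNA or protein of ARID1A and ARID1B was not analysed here, so unequal knockdown and other effects of a reagent cannot be told apart.

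Whether silencing of both genes went further than silencing of 1 was tested by setting the combinations against the 4 single-shRNA groups. Accessibility was lower in the combinations at 71 member sites and higher at 7, 7.79% against 7.81% of all sites (6.85% lower and 0.969% higher). Ligand genes held 19 of the lower sites among 179 tested, secreted inhibitor genes 14 among 224 and co-receptor genes 11 among 79. The nuclear factor genes held 10 among 118, the R-spondin genes 10 among 215 and the Frizzled genes 7 among 186. The 12 sites named for their falls were chosen on the same combination libraries, so their differences from the mean of the single silencings, from -1.08 at DKK3 to -0.55 at WNT16 on the log2 scale, are given as a description. That mean covers 4 unlike shRNAs. At the WNT11, RSPO2, TCF7L2, WNT9B, SFRP1 and LGR5 sites at least 1 single shRNA had a mean as low as or lower than that of a combination. At WNT9B, for example, shARID1A.4 had a mean of 0.948 CPM beside 0.76 and 1.02 CPM for the combinations, and at RSPO2 shARID1B.3 had 0.807 CPM beside 0.645 and 0.872 CPM. WNT16 was close to this, with 1.23 CPM for shARID1B.3 beside 1.2 and 1.11 CPM. At the DKK3 site the lowest single-shRNA mean was 13.3 CPM, above the 5.42 and 10.2 CPM of the combinations, and at WNT6 it was 3.35 CPM beside 2.2 and 2.55 CPM. Among summed genes 8 of 51 were lower, and the share called was 15.7% against 17.8% of all genes. These included DKK3 (-0.43), WNT5B (-0.29), TCF7L2 (-0.28), ROR2 (-0.23), WNT6 (-0.19) and ROR1 (-0.19).

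Silencing of ARID1A was finally compared with silencing of ARID1B. At 28 member sites accessibility was lower with the ARID1A shRNAs and at 12 it was higher, 4.0% against 4.74% of all sites (3.69% lower and 1.05% higher). The sites lower with ARID1A silencing included 13 of the 179 tested sites of ligand genes. TCF7L2 had a difference of -0.93 (SE 0.09, FDR 3.28e-13) at its strongest site, TCF7 of -0.86 (SE 0.10, FDR 3.8e-10) and WNT10A of -0.81 (SE 0.11, FDR 1.31e-08). At the TCF7L2 and TCF7 sites this average hides the gap between the ARID1B shRNAs given above, whereas at WNT10A the ARID1B shRNAs differed by 0.32 (FDR 0.131). The WNT11 site was the reverse, being higher with ARID1A silencing by 0.72 (SE 0.11, FDR 5.83e-07), and shARID1B.3 was again the lower of the ARID1B shRNAs. Over summed genes edgeR called 0 of the 51 members in this comparison, where 9.81% of all genes were called. At an unadjusted p under 0.05 there were 10, and DESeq2 called 2.

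A further list held 57 other genes of the pathway, with 802 tested sites. After combined silencing 165 of these fell and 37 rose, 25.2% against 13.7% of all sites, that is 20.6% lower and 4.61% higher against 10.3% and 3.43%. Among the summed genes 9 were lower and 9 higher, 31.6% against 36.9% of all genes, so the gene count was not above the background. Genes for nuclear cofactors and targets had 66 falls and 12 rises in 206 sites (32.0% and 5.83%), and those for secretion and extracellular regulation 71 and 6 in 288 (24.7% and 2.08%). Most falls of the nuclear role lay at TLE1, TLE3 and CTNNB1, whose counts are given under Other observations. CTNNB1 was counted in this role and not with cytoplasmic transduction. When summed, 3 of the 13 nuclear genes were lower and 2 higher, 23.1% and 15.4% against 20.9% and 15.9% of all genes. Cytoplasmic transduction genes had 6 falls and 13 rises in 141 sites (4.26% and 9.22%), and 4 of the 13 genes (30.8%) were higher when summed, where 15.9% of all genes were. TRABD2B, which encodes a membrane protease that inactivates WNT ligands, had falls at 24 of 29 sites. Its summed values went from 88.0, 82.0 and 89.6 CPM to 32.2, 30.2 and 32.6 CPM in shARID1A/B.2.3 and 33.7, 31.1 and 34.0 CPM in shARID1A/B.4.2 (log2 change -1.42, SE 0.05, FDR 1.74e-15). PRICKLE2, a planar polarity gene, fell by 0.84 (SE 0.04, FDR 1.01e-12) and FRZB, another secreted antagonist, by 0.64 (SE 0.04, FDR 1.13e-10). PRICKLE2 had 58.9, 55.8 and 58.0 CPM with shARID1A.2 but 32.4, 29.9 and 32.8 CPM with shARID1A.4, beside 63.4, 59.9 and 60.0 CPM in Control. The largest rises were those of DVL2 (0.51), CELSR3 (0.47) and DKKL1 (0.41), each of which has 1 tested site. DVL2 lost its call with scaling on promoter sites and without Control replicate 2, and DKKL1 with scaling on promoter sites.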

How the data were processed

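ATAC-seq libraries of SK-N-BE(2) cells, 3 in each of 7 groups, were analysed. Per the labels, the authors used GRCh38 and DESeq2, and HOMER annotation named the nearest gene of each site. Aligner and peak caller: not given in the sources used here. Per library, the authors deposited raw read counts over 1 consensus set (peaks from merged replicates), beside normalised counts and their own comparisons, which were not used. The median site was 760 bases long. Replicates differed by more than counting noise (chi-square per degree of freedom 1.079 to 2.471), so all libraries were kept.

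Counts were tested with edgeR 4.0.16 under R 4.3.3 (quasi-likelihood, TMM scaling, filterByExpr with a minimum count of 10), with all 21 libraries in 1 model without covariates and Benjamini-Hochberg adjustment over the 357029 sites that passed. The filter removed 30 member sites and 10871 sites in all. An FDR under 0.01 made a call. The common biological coefficient of variation was 0.082 for sites and 0.064 for summed genes. The SE was derived from the test statistic, and CPM is relative to the TMM-scaled library total. TMM cannot measure a change shared by most sites. The script was tested on simulated data. P-values measure the spread between these libraries. Sites within a gene share their source and are not replicates.

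Windows on chromosome 8 were not printed. Named were the start site of each member, the 12 member sites with the largest falls and the 6 with the largest rises at a mean of at least 1 CPM (1 per gene and direction), members called in the summed test, and the 3 largest falls and rises of the other pathway genes. Other genes named for their number of falls were chosen after their values were seen. Members and lists were chosen with earlier results of these data known. Alternatives were DESeq2 1.42.0, other scalings, no filter, a replicate block and leaving out each of the 21 libraries. One of the 28 alternatives, a block within Control and shARID1A/B.2.3, was added after the data were seen, because same-numbered libraries of these groups deviated together (r of 0.177, 0.479 and 0.189). One cell type marker is not reported here.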

Additional observations from a re-analysis of the deposited data

Results flagged for a closer look

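At several named sites the reagents of 1 silenced condition differed from each other by a direct test (edgeR quasi-likelihood, FDR under 0.01, log2 differences). Between the combinations, shARID1A/B.2.3 was lower than shARID1A/B.4.2 at the sites of TCF7L2 (-1.16, FDR 2.98e-09), DKK3 (-0.93, FDR 7.64e-09) and TCF7 (-0.68, FDR 0.00466), and lower at the first exon of SFRP1 (-0.50, FDR 1.16e-05). It was higher at the intergenic site of SFRP1 (1.45, FDR 8.62e-06). Between the ARID1A shRNAs, shARID1A.2 was lower than shARID1A.4 at the LGR5 site (-1.29, FDR 8.12e-07), and higher at the intergenic SFRP1 site (1.13, FDR 0.000382) and the RSPO3 site that rose (1.14, FDR 0.00123). Between the ARID1B shRNAs, shARID1B.2 was higher than shARID1B.3 at all 7 named sites that differed. These were TCF7 (1.32, FDR 1.25e-13), ROR1 (1.26, FDR 1.22e-05), WNT11 (1.08, FDR 4.07e-07), TCF7L2 (1.07, FDR 7.81e-12), RSPO2 (0.87, FDR 0.00499), WNT16 (0.84, FDR 0.00125) and DKK3 (0.52, FDR 0.000147).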

How the results depend on the processing

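All 12 named falls kept direction and call in all alternatives run, and no named value reversed. These falls were chosen as the largest calls in the same libraries, so this says little about other member sites. Calls at several start sites and named rises were lost, as given above. Depth limits sites near 1 CPM most. With scaling on promoter sites, falls made up 95.6% of the calls among all sites for the averaged combinations. Scaling on promoter sites gave 192 lower and 5 higher member sites for the averaged combinations, 7 higher for shARID1A/B.2.3, 169 lower and 5 higher for shARID1A/B.4.2, 1 higher for shARID1A.2, 94 lower and 3 higher for shARID1A.4, 126 lower and 5 higher for shARID1B.3, 1 higher in combined against single silencing, 7 higher in ARID1A against ARID1B silencing, and 26 lower and 0 higher summed genes. DESeq2 gave 10 higher for shARID1A/B.2.3, 19 lower for shARID1B.2, 46 lower for shARID1B.3, 4 higher in combined against single silencing and 7 higher in ARID1A against ARID1B silencing. Total counts alone gave 36 higher for shARID1A/B.2.3, 14 higher in combined against single silencing and 7 higher summed genes. The replicate block gave 132 lower and 22 higher for the averaged combinations and 19 higher for shARID1B.3, where 12 were higher without it. The block within Control and shARID1A/B.2.3 gave 40 higher for shARID1A/B.2.3, against 18. Between other groups, r of same-numbered libraries ran from -0.288 to 0.298. It was 0.129, 0.287 and 0.071 for Control with shARID1A.2, and 0.142, 0.298 and 0.077 for shARID1A.2 with shARID1A/B.2.3. For Control with shARID1B.2 it was -0.131, -0.276 and -0.031. None of these pairs was given a block of its own. The causes were not tested.

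Leaving out 1 library gave, as lower and higher member sites, 101 to 127 and 13 to 33 for the averaged combinations, 113 to 137 and 11 to 23 for shARID1A/B.2.3, 64 to 80 and 17 to 35 for shARID1A/B.4.2, 35 to 58 and 0 to 10 for shARID1A.2, 38 to 59 and 9 to 25 for shARID1A.4, 17 to 34 and 4 to 10 for shARID1B.2, 48 to 79 and 6 to 28 for shARID1B.3, 54 to 73 and 3 to 11 for combined against single silencing, 22 to 29 and 7 to 14 for ARID1A against ARID1B silencing, and 12 to 16 and 2 to 4 for summed genes. Without the second Control library the rises of the averaged combinations numbered 13, those of shARID1A.2 2, of shARID1A.4 9 and of shARID1B.3 6, and 2 summed genes were higher. Other libraries moved small counts as well. Rises with shARID1A/B.2.3 numbered 11 without Control replicate 1. Rises with shARID1A.2 numbered 3 without Control replicate 3 and 0, 10 and 3 without its own replicates 1, 2 and 3. Rises with shARID1A.4 numbered 9 without its replicate 1 and 25 without shARID1A/B.2.3 replicate 2. Rises with shARID1B.2 numbered 5 without Control replicate 1 and 4 without its own replicate 3. Rises with shARID1B.3 numbered 20 without shARID1A.2 replicate 2 and 21, 28 and 20 without the shARID1A/B.2.3 replicates 1, 2 and 3. In combined against single silencing 11 sites were higher without shARID1A.2 replicate 1, 3 without shARID1A/B.4.2 replicate 2 and 4 without its replicate 3, and in ARID1A against ARID1B silencing 7 were higher without shARID1B.2 replicate 2.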

Other observations

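Further genes of the pathway were picked out after their values had been seen, and are given as values only. CTNNB1, which encodes β-catenin, had falls at 10 of its 13 tested sites after combined silencing. Its summed accessibility was 43.9, 45.4 and 39.6 CPM in Control, 28.8, 30.1 and 30.5 CPM in shARID1A/B.2.3, and 26.2, 26.2 and 27.5 CPM in shARID1A/B.4.2, without overlap (log2 change -0.61, SE 0.05, edgeR FDR 6.11e-09). The genes of the TLE corepressors, which bind TCF factors, had falls at 23 of 58 sites for TLE1 and 17 of 36 for TLE3. Summed over its sites, TLE1 had 212 to 224 CPM in Control and 156 to 182 CPM over the combination libraries (log2 change -0.40, SE 0.04, FDR 1.44e-08). TLE3 had 133 to 168 CPM in Control and 108 to 123 CPM over the combinations (log2 change -0.40, SE 0.06, FDR 2e-05), so the groups were separate at both genes. The R-spondin receptor gene LGR6 had a summed log2 change of -0.34 with shARID1B.2 and of 0.08 with shARID1B.3, and the direct difference of -0.42 passed the threshold.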
